A study of Mus musculus with 12 samples.

Results

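Mouse embryonic fibroblasts (MEFs, connective tissue cells grown from embryos) that lacked Sirt2 were compared with wild-type MEFs while both were exposed to interferon beta. The members were the 3 arrays of Sirt2-/- cells and the 3 arrays of Sirt2+/+ cells given mouse IFNβ at 2500 IU/ml for 4 h, which are 6 of the 12 arrays of the series. The other 6 arrays hold untreated cells of the same genotypes, and their levels are given beside some genes. The comparison asks how the genotypes differ in the presence of the cytokine. The labels do not give the mouse strain, the embryonic age, the allele, or whether the MEFs were primary cells or a line. Nor do they tell whether the replicates came from separate cultures or embryos. The p-values therefore measure only how far these samples spread, which may be technical.

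Sirt2 is an NAD-dependent deacetylase found mostly in the cytoplasm, where alpha-tubulin is among its substrates. Interferon beta is a type I interferon, secreted by cells that sense a virus. It binds the receptor made of Ifnar1 and Ifnar2, whose kinases Jak1 and Tyk2 activate Stat2. Stat2 joins Irf9 in a complex that enters the nucleus and switches on interferon-stimulated genes through a promoter element called the ISRE. The series' title places Sirt2 in type I interferon signalling. A kinase whose subunits are Cdk9 and a cyclin T (P-TEFb) releases paused RNA polymerase II, and its genes are described below as well.

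Transcripts were read on Illumina bead arrays of a single colour. Levels are log2 normalized intensities of 1 probe per gene, so they are compared between arrays and not between genes. Each array detected 17091 to 18155 of its 45281 probes (detection p under 0.05), and median intensities lay between 111 and 115. Across probes, Pearson's r was 0.995 to 0.996 for arrays of the same genotype and 0.968 to 0.976 for arrays of different genotypes. Probes are not independent replicates. The genotypes lay apart on the first principal component, which took up 88.6% of the variance. The lowest levels of detected probes, taken as the background of an array, lay between 4.87 and 5.0. Precision is limited by the number of arrays.

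Several arrays held low amounts of transcripts that marked the other genotype. Of the genes that stood above 9 on all 3 knockout arrays, 7 were not detected on wild-type arrays 1 and 3, and 7 of these 7 were detected on wild-type array 2, at a median level of 6.16. On knockout array 2, 6 of 11 such genes of the opposite kind were detected (above 9 on all wild-type arrays, undetected on the other knockout arrays), and on knockout array 3, 5 of 10. On knockout array 1 the count was 0 of 5. Among weakly expressed genes, 42.1% of 292 were detected on wild-type array 2 alone, against 13.8% and 17.2% on wild-type arrays 1 and 3. The largest differences below are therefore also given without those arrays.

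Sex-linked transcripts differed between the genotypes on every array. Xist, the RNA that coats the inactive X chromosome of female cells, stood at 9.44, 9.60 and 9.51 on the wild-type arrays and at 4.36, 6.33 and 5.05 on the knockout arrays. Eif2s3y, a translation factor gene on the Y chromosome, stood at 9.58, 9.50 and 9.59 in the knockout and at 4.65, 6.78 and 4.32 in the wild type. Kdm5d, a Y-linked histone demethylase gene, was detected on all 3 knockout arrays and on none of the wild-type arrays. The groups did not overlap in any of these genes, and the wild-type value of Eif2s3y that was highest came from array 2. All 3 arrays of a genotype lay on the same side in each of these genes, so differences of genotype and of the sex of the cells cannot be told apart here.

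Fibroblast markers were present in both groups. All 9 listed markers passed the detection filter, which required detection on all 3 arrays of either group, and 6 were lower and 2 higher in the knockout. Thy1, a fibroblast surface protein, had a log2 difference of −3.30, knockout minus wild type (adjusted p = 8.54e-08). The linear intensities of the 9 markers summed to between 14086 and 14493 per knockout array and between 26385 and 26867 per wild-type array. That gap came mostly through Thy1 (mean level 10.0 in the knockout and 13.3 in the wild type). The 2 higher markers were Col1a1 (11.5 against 10.9) and Fn1 (9.6 against 9.2). Of 9 macrophage and leukocyte markers only Cd14 passed, with a summed intensity of 167 to 176 in the knockout and 408 to 508 in the wild type, and Ptprc, Csf1r and Adgre1 did not pass. No endothelial marker of 7 and no skeletal muscle marker of 6 passed. Of 8 epithelial markers 3 passed, summing to 87.7 to 113 in the knockout and 822 to 970 in the wild type, mostly through Krt18, a keratin gene. Of 7 neural markers 3 passed, with sums of 2142 to 2336 in the knockout and 928 to 1129 in the wild type. Nes (mean level 10.4 against 9.2) and Map2 (9.8 against 8.3) were higher in the knockout, and Sox2 (5.3 against 6.6) was lower. Of 4 smooth muscle markers Acta2 and Tagln passed, with sums of 18221 to 20151 and 30398 to 34348. In such bulk samples, fewer cells of a type and less RNA per cell cannot be told apart, and the part of these markers in the gene differences below was not tested.

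The targeted gene was low on every knockout array. Sirt2 stood at 5.86, 6.37 and 6.15 in the treated knockout and at 9.23, 8.76 and 8.97 in the treated wild type. The groups did not overlap. The difference, knockout minus wild type, was −2.86 ± 0.16 (SE, n = 3 arrays per group, adjusted p = 8.65e-07), and in untreated cells the levels were 6.04, 6.66 and 6.61 against 8.72, 8.89 and 8.94. The probe was detected on all 3 treated knockout arrays, and the sources used here do not say whether it falls within the deleted exons.

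The genotypes differed across the transcriptome under interferon. At an adjusted p under 0.05, the threshold for a call here, 3331 genes were higher and 2807 lower in the treated knockout, of 11645 tested. These are 28.6% and 24.1% of the genes tested, and together 52.7%. The genes tested include probes without a gene symbol, each counted as a gene. A difference of at least 2-fold was called in 573 higher and 942 lower genes, which is 13% of all, and one of at least 8-fold in 35 higher and 113 lower genes. The 3 arrays of a genotype did not overlap with those of the other in 7079 genes, or 60.8%. The median difference over all genes was 0.06. At the threshold itself, Rab9 (−0.37, adjusted p = 0.0498) and Diaph1 (0.31, 0.0499) were called, and Zdhhc7 (−0.34, 0.0501) and Prkdc (−0.31, 0.0502) were not. Calls are so common that a gene list in which about 1 gene in 2 is called lies near the background of these arrays. The counts of every list below are to be read beside the shares of 28.6% higher and 24.1% lower. Without knockout arrays 2 and 3 together, which leaves 1 knockout array assumed to vary as the wild-type arrays do, 2140 higher and 2109 lower genes were called. Of these, 2035 and 1999 were shared with the calls from all 6 arrays.

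**Figure D1:**
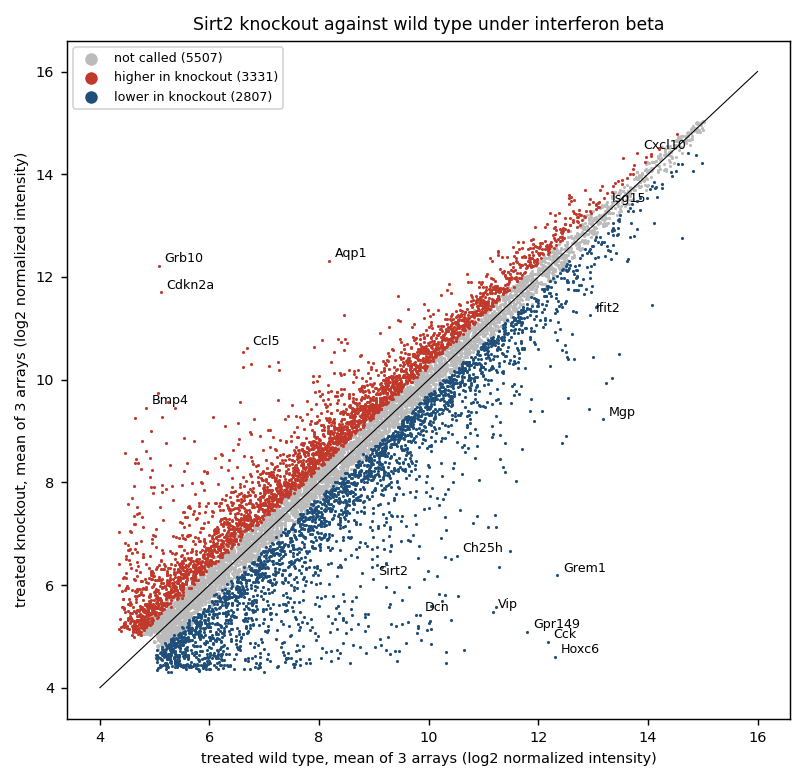
Mean log2 normalized intensity of 11645 genes in the treated wild type (horizontal axis) and the treated knockout (vertical axis), 3 arrays each, with called genes in colour and the line of equal levels in black. Hoxc6, Cck, Gpr149 and Grem1 lie near background in the knockout and high in the wild type, Grb10 and Cdkn2a lie the other way, and Isg15 lies close to the line.

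Many of the genes furthest apart were near background in one genotype, and others, such as Aqp1, were detected on all arrays. Hoxc6, a homeobox transcription factor that patterns the trunk, was the gene with the largest difference. It stood at 4.61, 4.44 and 4.74 in the knockout and at 12.38, 12.31 and 12.23 in the wild type. It was not detected on any knockout array, so it was at least 163-fold lower there (adjusted p = 6.03e-10). Cck, the gene of the peptide hormone cholecystokinin, stood at 4.43, 5.39 and 4.86 against 12.25, 11.95 and 12.31. It was at least 149-fold lower when only knockout array 1 was set against the wild type. Gpr149, an orphan receptor gene, was lower by 6.71 ± 0.28 on the log2 scale (adjusted p = 1.60e-07), and a second Gpr149 probe gave −0.52. Vip, a neuropeptide gene, was lower by 5.69 ± 0.34 (adjusted p = 1.33e-06). On knockout array 1 alone Gpr149 and Vip were at least 115-fold and 74.7-fold lower.

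In the other direction, Grb10, an imprinted gene whose product restrains insulin and IGF receptor signalling, led the list. Its levels were 12.16, 12.12 and 12.39 in the knockout and 4.58, 6.16 and 4.47 in the wild type, so that wild-type array 2 stood above arrays 1 and 3. The difference was 7.15 ± 0.37 (adjusted p = 5.54e-07), and without wild-type array 2 it was at least 151-fold. A second Grb10 probe gave a difference of only 1.54. Aqp1, a water channel gene, was higher in the knockout by 4.13 ± 0.17 (12.05, 12.60 and 12.30 against 8.03, 8.50 and 8.02). Erfe, the gene of the hormone erythroferrone, was higher by 4.61 ± 0.24, Spint1, a protease inhibitor gene, at least 12.4-fold, and Anxa8, an annexin gene, at least 14.5-fold. Hspb1, a small heat shock protein gene, showed how far a single array could move a value. Its wild-type levels were 4.43, 7.15 and 4.55, and the difference of 4.08 ± 0.59 (adjusted p = 0.000339) became 4.97 without wild-type array 2. The genes in these paragraphs on the largest differences were picked among those in which the genotypes did not overlap. Their lack of overlap therefore adds no support.

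All tested antiviral effector genes were detected on all 6 arrays, and 15 of them were called. Of 33 tested members of 38, 4 were higher, 11 lower and 18 not called in the knockout, against 28.6% and 24.1% of all genes in these directions. The median difference was −0.04. Averaged over the 33 members, the arrays stood at 10.74, 10.44 and 10.39 in the knockout and at 10.79, 10.73 and 10.71 in the wild type. Knockout array 1 lay among the wild-type values and arrays 2 and 3 below them. The difference of these means, 10.52 ± 0.19 against 10.74 ± 0.04 (SD, n = 3), was −0.22 (exact permutation test, two-sided p = 0.3). With 3 arrays per group the smallest p such a test can give is 0.1, so it could not pass 0.05 and says nothing on whether the means differ. Without knockout arrays 2 and 3 it was −0.01, and 5 members were then lower. Leaving out wild-type array 1 left 2 higher members, and the deposited log2 values gave 7.

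Several genes at the core of the response did not pass the test. Isg15, the ubiquitin-like protein that is coupled to other proteins in infected cells, stood at 13.45, 13.36 and 13.33 in the knockout and at 13.22, 13.36 and 13.17 in the wild type, a difference of 0.13 ± 0.10 (adjusted p = 0.307). Rsad2, the antiviral enzyme viperin, differed by 0.12 ± 0.14 (adjusted p = 0.487), and its knockout levels of 13.10, 12.62 and 12.66 spanned the wild-type levels of 12.66, 12.67 and 12.68. Mx2, a dynamin-like GTPase gene, differed by −0.11 ± 0.15 (adjusted p = 0.546). The genotypes overlapped in all 3 of these genes. Rsad2 was called without knockout arrays 2 and 3 together (0.43, adjusted p = 0.0481). Mx1, the related GTPase gene, stood at 7.47, 6.76 and 6.43 against 7.53, 7.80 and 7.07 and was not called (−0.58 ± 0.26, adjusted p = 0.0887). It was called without knockout array 1 (−0.87, adjusted p = 0.00891). Usp18, the protease that removes Isg15 and dampens the receptor, differed by −0.28 ± 0.11 (adjusted p = 0.0510). A second Usp18 probe was called (−0.48, adjusted p = 0.0170), and so was the first with the deposited log2 values (adjusted p = 0.0119), median scaling (0.0231), detection on all 6 arrays (0.0458) and the mean of probes (0.0123).

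Ch25h and Ifit2 stood apart within the antiviral list. Ch25h makes the antiviral oxysterol 25-hydroxycholesterol. Its level was 6.55, 6.55 and 6.59 in the knockout and 10.55, 10.42 and 10.58 in the wild type, a difference of −3.95 ± 0.10 (adjusted p = 1.98e-08), or 15.5-fold. In untreated wild-type cells it had stood at 6.06, 6.51 and 6.51, about where the treated knockout lay. The untreated knockout stood at 4.41, 6.34 and 6.09 and was detected on 2 of these arrays. Without untreated knockout arrays 2 and 3, the untreated difference was −1.95. Ifit2, an antiviral RNA-binding protein, stood at 11.41, 11.14 and 11.21 against 12.99, 12.85 and 13 (−1.69 ± 0.11, adjusted p = 2.46e-06). A second Ifit2 probe gave −1.23. The related Ifit3 was lower by 0.45 ± 0.12 (adjusted p = 0.0092), and a second probe of it gave −1.01. Phf11d, a zinc finger gene, was lower by 1.10 ± 0.15 (adjusted p = 0.000216), Ifitm2, which blocks virus entry at endosomes, by 0.97 ± 0.10 (adjusted p = 3.08e-05), and Ifi47, an immunity-related GTPase gene, by 0.91 ± 0.11 (adjusted p = 0.000108). The groups did not overlap in any of these 6 genes.

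Trim30a, a ubiquitin ligase family gene that restrains inflammatory signalling in mouse cells, was the antiviral list member that was most clearly higher. It stood at 9.56, 9.01 and 9.10 in the knockout and at 8.15, 7.97 and 7.90 in the wild type (1.22 ± 0.15, adjusted p = 0.000132). The other higher members were Ifi35 (0.59), Ifi27 (0.30) and Zc3hav1 (0.28). Probes of Adar, which edits double-stranded RNA, were called in opposite directions (−0.48 for the brightest, up to 0.94 for another), so its direction is uncertain.

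Among the oligoadenylate synthetases, which sense double-stranded RNA and make the second messenger of the latent RNase, 3 of 7 tested members were higher and 1 lower. The 4 called are near the 52.7% called over all genes. Oasl1, a family member without synthetase activity, stood at 12.21, 11.96 and 11.88 in the knockout and at 11.18, 10.95 and 11.01 in the wild type. The groups did not overlap (0.97 ± 0.12, adjusted p = 0.000135). Oas1a was higher by 0.60 ± 0.13 (adjusted p = 0.00355) and Oas1g by 0.69 ± 0.14 (adjusted p = 0.00310). The other kept Oas1g probes gave 0.67 and 0.68, which were called, and 0.49, which was not (adjusted p = 0.0611). Oas1c was lower by 0.58 ± 0.15 (adjusted p = 0.00811). Oasl2 was not called (0.28 ± 0.11, adjusted p = 0.0580), nor were Oas1b and Oas2. Without knockout array 2 Oasl2 was called (0.35, adjusted p = 0.0392). Without knockout array 1, 2 members were lower, and without knockout arrays 2 and 3 together 5 were higher. The Oas1 genes are near-identical neighbours, and a probe of one may also capture another.

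Of 4 tested genes of the ISG15 pathway, 2 were lower and 0 higher, a share near the 52.7% called over all genes. Uba7, the enzyme that activates Isg15, stood at 10.22, 10.09 and 9.43 against 10.80, 10.73 and 10.41 (−0.73 ± 0.20, adjusted p = 0.0127). Ube2l6, the conjugating enzyme, was lower by 0.62 ± 0.14 (adjusted p = 0.00406). Neither call held without knockout arrays 2 and 3 (adjusted p = 0.126 and 0.127).

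The guanylate-binding and immunity-related GTPases, which attack the vacuoles of intracellular microbes, were mostly not called. Of 10 tested members, 3 were lower, 0 higher and 7 not called, and the 7 had differences between −0.34 and 0.13. Gbp2 stood at 13.23, 13.01 and 12.93 in the knockout and at 13.34, 13.04 and 13.21 in the wild type (−0.14 ± 0.12, adjusted p = 0.370). Tgtp1, the interferon-inducible T-cell specific GTPase, lay furthest apart, at 8.37, 7.96 and 7.70 against 10.10, 9.82 and 9.92 (−1.93 ± 0.17, adjusted p = 1.21e-05). Gvin1, a giant GTPase gene, stood at 9.97, 9.88 and 9.80 against 11.66, 11.69 and 11.72 (−1.81 ± 0.10, adjusted p = 7.18e-07). A second Gvin1 probe gave −0.28 and was not called. Iigp1 was lower by 0.69 ± 0.19 (adjusted p = 0.0133), a call lost without knockout arrays 2 and 3 (−0.27, adjusted p = 0.358), and its other kept probes were not called (−0.48 and −0.62).

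Promoters of these genes were searched for the ISRE, written as GAAA, any 2 bases and GAAA again, on either strand (matches may overlap), from 250 bases before to 50 bases after the annotated start. All 8 tested GTPase genes with a promoter window held a match, against 3.99% of 27025 promoters in the RefSeq table and 3.77% of the tested genes. Of 27 antiviral effector promoters 9 held one, of 5 oligoadenylate synthetase promoters 3, of 17 promoters of the MHC class I list 4 and of 15 chemokine and cytokine promoters 1. Over these lists, with those of the ISG15 pathway, 4 of 20 genes higher in the knockout, 6 of 24 lower and 16 of 31 not called held a match. The motif was thus present in genes of all 3 kinds. The promoters below show it, with matches in capitals, in a gene that was lower (Tgtp1), in genes that were not called (Gbp2, Igtp and Isg15) and in a gene that was higher (Trim30a). They are the 200 bases before the start, 5′ to 3′ on the strand of the gene, from RefSeq on GRCm38.p6.
Tgtp1, chr11:48992247-48992446, minus strand, match 77 bases before the start: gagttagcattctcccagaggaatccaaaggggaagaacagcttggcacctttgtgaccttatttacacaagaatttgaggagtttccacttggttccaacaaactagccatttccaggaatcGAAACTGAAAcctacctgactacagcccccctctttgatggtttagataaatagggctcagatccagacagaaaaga
Gbp2, chr3:142620463-142620662, plus strand, match 59 bases before the start: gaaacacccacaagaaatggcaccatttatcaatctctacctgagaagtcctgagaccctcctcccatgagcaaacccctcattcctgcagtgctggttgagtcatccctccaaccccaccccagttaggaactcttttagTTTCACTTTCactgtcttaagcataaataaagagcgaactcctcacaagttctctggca
Igtp, chr11:58199356-58199555, plus strand, match 34 bases before the start: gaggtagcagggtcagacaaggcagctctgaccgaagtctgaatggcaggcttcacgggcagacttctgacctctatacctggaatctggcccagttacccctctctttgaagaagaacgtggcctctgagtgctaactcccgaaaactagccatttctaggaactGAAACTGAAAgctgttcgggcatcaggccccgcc
Trim30a, chr7:104465194-104465393, minus strand, match 36 bases before the start: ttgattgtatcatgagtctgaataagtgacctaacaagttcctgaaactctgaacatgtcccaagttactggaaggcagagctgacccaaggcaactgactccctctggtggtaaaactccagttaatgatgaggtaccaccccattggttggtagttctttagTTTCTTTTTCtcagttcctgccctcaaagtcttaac
Isg15, chr4:156200819-156201018, minus strand, 3 overlapping matches 78, 72 and 66 bases before the start: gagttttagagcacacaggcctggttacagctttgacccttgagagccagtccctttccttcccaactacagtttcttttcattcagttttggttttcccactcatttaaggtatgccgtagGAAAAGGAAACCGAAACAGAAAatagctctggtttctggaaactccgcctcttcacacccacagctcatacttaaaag
A match is a description of the letters in this window and was not tested as a binding site.

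Of the signalling genes themselves, Stat2 was the furthest apart. It stood at 9.34, 9.19 and 8.80 in the knockout and at 10.50, 10.22 and 10.19 in the wild type, with no overlap (−1.19 ± 0.15, adjusted p = 0.000173). Irf7, the factor that amplifies interferon production, was lower at 10.04, 9.64 and 9.45 against 10.48, 10.15 and 10.42 (−0.64 ± 0.16, adjusted p = 0.00801). Irf9, the DNA-binding partner of Stat2, was higher, at 11.16, 11.02 and 10.90 against 10.56, 10.54 and 10.31 (0.56 ± 0.12, adjusted p = 0.00318). A second Irf9 probe gave 0.26 and was not called (adjusted p = 0.254). Over the list, 3 of 19 tested members were higher and 5 lower, with a median of −0.13. The lower members included Jak2, a cytokine receptor kinase (−0.90 ± 0.12), and Socs2, a feedback inhibitor of cytokine receptors (−0.69 ± 0.11). Ptpn11, the phosphatase Shp2, was higher by 0.59 ± 0.10 (adjusted p = 0.00106). The receptor chain Ifnar2 (−0.23, adjusted p = 0.105), the kinases Jak1 and Tyk2, and Irf1 and Irf3 were not called. Ifnar1 did not pass the detection filter.

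Several of these interferon gene calls depended on which arrays set the spread. When the spread was pooled over all 12 arrays, Stat2 (adjusted p = 0.0768), Irf7 (0.348), Irf9 (0.0503), Phf11d (0.109), Ifit3 (0.778), Oasl1 (0.129), Oas1a (0.0505), Oas1g (0.270), Uba7 (0.365), Ube2l6 (0.226), Iigp1 (0.0677) and Cxcl10 (0.287) were no longer called. The pooled spread takes in the untreated knockout arrays, where Ifit3 stood at 5.70, 12.02 and 12.26 and Irf7 at 4.38, 6.81 and 7.47. For Ifit3 the SE went from 0.12 to 1.2, while its SD on the treated arrays was 0.13 in each genotype. With the pooled spread the antiviral list held 2 higher and 4 lower members, and the oligoadenylate synthetases none higher. Ifit2, Ch25h, Tgtp1, Gvin1, Trim30a, Tap2 and H2-K1 kept their calls.

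**Figure D2:**
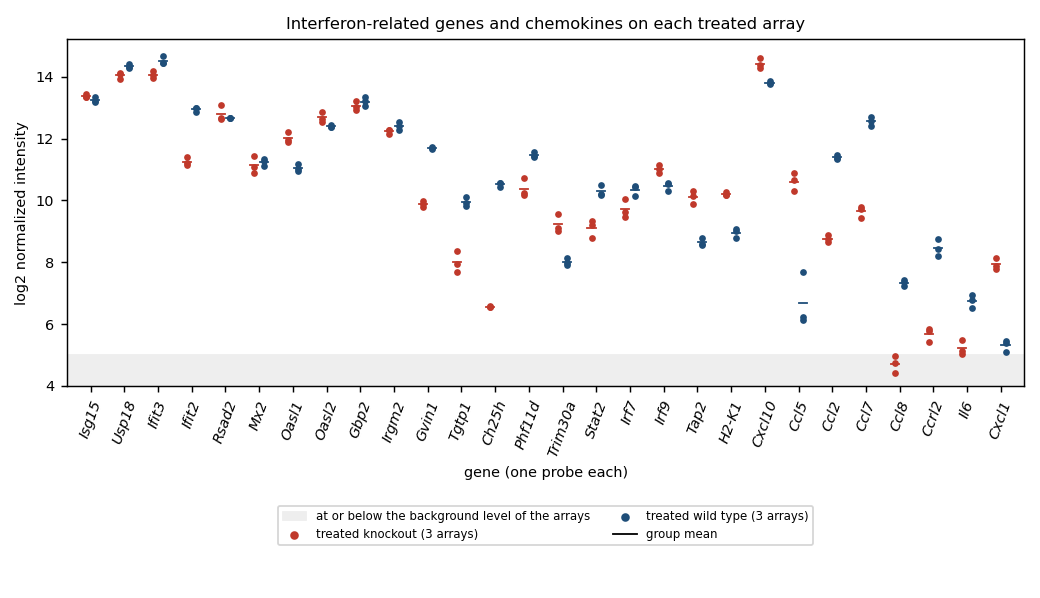
Log2 normalized intensity of interferon-related genes and chemokines on the 3 treated knockout and 3 treated wild-type arrays (points), with group means (lines) and the background level shaded. Isg15, Rsad2, Mx2 and Gbp2 overlap between genotypes, Ch25h, Tgtp1, Ccl7 and Ccl8 are lower in the knockout, and Ccl5 and Cxcl1 are higher.

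Antigen presentation leaned the other way. Of 20 tested members of the MHC class I list, whose products show peptides to cytotoxic T cells, 9 were higher and 2 lower (45% and 10%, against 28.6% and 24.1% of all genes), with a median difference of 0.30. Tap2, a subunit of the peptide transporter, stood at 10.31, 10.14 and 9.87 in the knockout and at 8.79, 8.55 and 8.60 in the wild type (1.46 ± 0.13, adjusted p = 1.67e-05). H2-K1, a classical class I heavy chain, stood at 10.26, 10.17 and 10.18 against 9.06, 9.0 and 8.80 (1.25 ± 0.11, adjusted p = 1.18e-05). H2-Q6, a nonclassical heavy chain, stood at 7.46, 6.95 and 6.98 against 4.57, 5.12 and 4.65 (2.35 ± 0.18, adjusted p = 6.33e-06). None of these overlapped. H2-Q6, however, was detected on only 1 wild-type array and passed the detection filter through the knockout alone, so the filter favoured a difference. Of the 19 members detected on all 6 arrays, 8 were higher and 2 lower. Second probes of H2-K1 and H2-Q6 gave 0.58 and 1.13. H2-M3 was higher by 0.75, H2-D1 by 0.66 and the transporter subunit Tap1 by 0.65, while B2m, the invariant light chain, did not differ beyond its spread (−0.00 ± 0.11, adjusted p = 0.987). Nlrc5, the transactivator of class I genes, was among the lower members (−0.46 ± 0.14, adjusted p = 0.0230). Class I heavy chains are similar in sequence and a probe of one may capture another, so the levels of single H2 genes are uncertain. The count of lower members was 4 without knockout array 1, 0 without knockout array 2, knockout array 3 or wild-type array 1, and 1 without wild-type array 3. With the spread pooled over all 12 arrays, 5 members were higher and 0 lower.

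Sensors of nucleic acids and of bacterial products split by gene. Of 15 tested, 4 were higher and 6 lower (26.7% and 40%, against 28.6% and 24.1% of all genes). Ifi205, a DNA-sensing family member, stood at 9.25, 8.70 and 8.58 in the knockout and at 6.49, 6.95 and 6.17 in the wild type (2.31 ± 0.22, adjusted p = 2.28e-05), and its neighbour Ifi211 was higher by 1.72 ± 0.23. Tlr2, a receptor for bacterial lipopeptides, stood at 9.02, 8.73 and 8.47 against 6.59, 6.5 and 6.5 (2.21 ± 0.14, adjusted p = 1.82e-06). Cgas, the cytosolic DNA sensor, was higher by 0.77 ± 0.10. Tlr4, the endotoxin receptor, was lower by 1.34 ± 0.14 (adjusted p = 5.18e-05), and Tlr3, a receptor for double-stranded RNA, by 0.98 ± 0.13 (adjusted p = 0.000164). Dhx58 and Ifih1, cytosolic RNA helicases, were lower by 0.72 and 0.61, and the adaptors Mavs and Myd88 were not called. The count of lower members was 3 when knockout array 2, wild-type array 1 or wild-type array 3 was left out.

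Chemokines and cytokines were among the interferon-related genes furthest apart. Of 22 tested, 8 were higher, 13 lower and 1 not called, with a median of −0.68, and of the 15 detected on all 6 arrays 6 were higher and 9 lower. Ccl2, Ccl7 and Ccl8, attractants of monocytes, were lower in the knockout. Ccl2 stood at 8.87, 8.74 and 8.67 against 11.48, 11.36 and 11.35 (−2.63 ± 0.10, adjusted p = 1.13e-07). Ccl7 stood at 9.73, 9.42 and 9.78 against 12.58, 12.40 and 12.69 (−2.91 ± 0.13, adjusted p = 2.40e-07). Ccl8 stood at 4.42, 4.73 and 4.97 against 7.43, 7.35 and 7.24 (−2.64 ± 0.14, adjusted p = 7.10e-07). For all 3 genes every knockout array lay below every wild-type array. Ccl8 was detected on only 1 knockout array and passed the detection filter through the wild type alone, so the filter favoured a difference. Ccrl2, a receptor that presents the attractant chemerin, was lower by 2.78 ± 0.17 and the membrane-bound chemokine Cx3cl1 by 2.49 ± 0.19. The alarm cytokine Il33 was lower by 3.65 ± 0.26 and the inflammatory cytokine Il6 by 1.53 ± 0.15. In untreated cells the differences were −2.51 for Cx3cl1, −3.83 for Il33, −1.58 for Ccl2 and −1.83 for Ccl7. Those of Ccl8, Ccrl2 and Il6 were −0.28, 0.17 and 0.23, but these genes lay near background without interferon. Il6 was detected on no untreated array, Ccl8 on 1 wild-type array, and Ccrl2 on 1 array of each genotype. Such values cannot show whether the genotypes differed in untreated cells. Without untreated knockout arrays 2 and 3, Ccl2 and Ccl7 differed by −3.39 and −4.14 in untreated cells.

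Other chemokines were higher. Ccl5, which draws T cells, stood at 10.66, 10.29 and 10.88 in the knockout and at 6.13, 7.67 and 6.23 in the wild type (3.93 ± 0.35, adjusted p = 1.66e-05, and 4.42 without wild-type array 2). Its untreated levels were 10.04, 10.24 and 10.49 in the knockout and 5.64, 5.77 and 5.87 in the wild type, so the gap was there without interferon. Cxcl1, a neutrophil attractant, stood at 8.14, 7.87 and 7.79 against 5.10, 5.44 and 5.40 (2.62 ± 0.14, adjusted p = 5.44e-07). Its difference in untreated cells was 3.13. Cxcl10, an interferon-induced attractant of T cells, stood at 14.60, 14.30 and 14.37 against 13.85, 13.80 and 13.77 (0.62 ± 0.11, adjusted p = 0.00122). Probes of Cxcl12 were called in opposite directions (0.53 and −0.34).

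Of 17 tested genes of P-TEFb and transcription elongation, 9 were higher and 1 lower, with a median of 0.35. The 10 called are near the 52.7% called over all genes. Cdk9 stood at 8.55, 8.44 and 8.51 in the knockout and at 7.77, 8.20 and 8.01 in the wild type (0.51 ± 0.12, adjusted p = 0.00717). The groups did not overlap, and in untreated cells Cdk9 stood at 8.55, 8.21 and 8.43 against 8.09, 7.83 and 7.84. Hexim1, which holds P-TEFb inactive, was higher by 1.21 ± 0.13 (adjusted p = 5.92e-05), Larp7, a protein of the same inhibitory complex, by 0.96 ± 0.13 (adjusted p = 0.000209), and Mepce, the enzyme that caps its RNA, by 0.69 ± 0.12 (adjusted p = 0.00116). The cyclin gene Ccnt1 was not called (−0.21, adjusted p = 0.136). The elongation factor Ell2 was the lower member (−0.70 ± 0.17), and without knockout array 2 there were 2. Without knockout arrays 2 and 3 together, 5 members were higher and 0 lower, and Cdk9 was not called (0.56, adjusted p = 0.0605).

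The other sirtuins had differences between −0.56 and 0.57. Sirt3, the mitochondrial deacetylase, was lower by 0.56 ± 0.11 and Sirt1, the nuclear one, by 0.53 ± 0.12, while Sirt4 was higher by 0.57 ± 0.15. Sirt5, Sirt6 and Sirt7 were not called. Of 13 tested genes for tubulins and enzymes that set or remove acetyl groups, 2 were higher and 0 lower. Tubg1, gamma-tubulin, was higher by 0.61 ± 0.10 (adjusted p = 0.000626). Tubb5 was higher by 0.26 ± 0.09, a call that was lost when any single array of the 6 was left out. Hdac6, the other tubulin deacetylase, and Atat1, the alpha-tubulin acetyltransferase, were not called (adjusted p = 0.778 and 0.129).

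**Figure D3:**
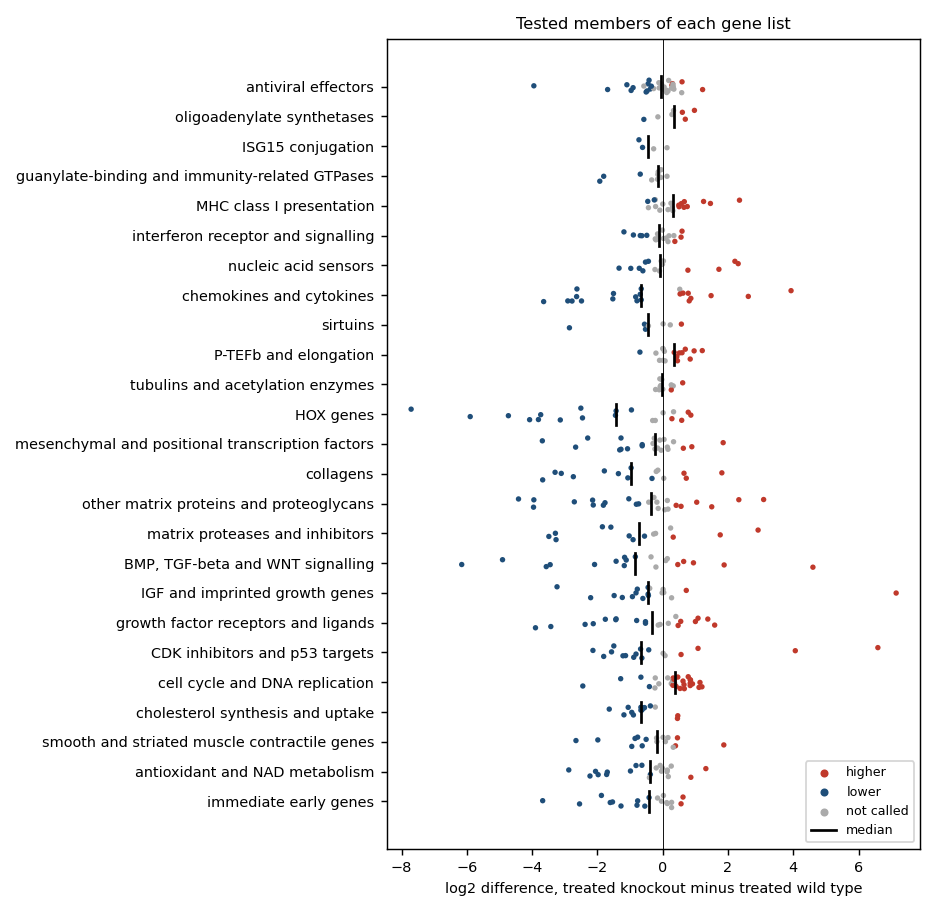
Log2 difference, treated knockout minus treated wild type, of each tested member (point) of the 25 gene lists other than the sex-linked genes, coloured by call, with the median of each list as a black bar. The HOX, collagen and chemokine lists spread over several log2 units, while the median of the antiviral list lies at −0.04, with Ch25h and Ifit2 lowest and Trim30a highest.

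Some members of the lists that follow passed the detection filter only through the genotype in which they were high, so they had to differ. Among members detected on all 6 arrays, 2 collagens of 13 were higher and 8 lower, and 5 other matrix genes of 19 were higher and 8 lower. Of 16 BMP, TGF-beta and WNT genes 4 were higher and 8 lower, and of 17 growth factor genes 6 were higher and 8 lower. Of 15 CDK inhibitors and p53 targets 2 were higher and 11 lower, and of 29 cell cycle genes 19 were higher and 4 lower. Of 17 antioxidant genes 1 was higher and 7 lower, and of 16 immediate early genes 2 were higher and 8 lower. Over all 10245 genes detected on all 6 arrays, 2900 were higher and 2271 lower.

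HOX genes encode homeobox factors that mark position along the body axis and limbs, and fibroblasts keep such a code in culture. The tested genes of 3 of the 4 clusters were lower in the knockout where they were called. Of 20 tested genes of 39, 12 were lower and 4 higher, with a median of −1.44. In cluster B, 5 of 6 tested genes were lower, in cluster C 2 of 3 and in cluster D 5 of 5, and none was higher. In cluster A, 4 of 6 were higher and none lower. Hoxc9 stood at 4.41, 4.36 and 5.45 in the knockout and at 10.65, 10.54 and 10.74 in the wild type (−5.90 ± 0.25, and at least 51.8-fold lower on knockout array 1 alone). Hoxb2 stood at 4.81, 5.51 and 4.86 against 10.05, 9.58 and 9.72 (−4.73 ± 0.20), and Hoxb4 at 4.98, 5.25 and 5.47 against 9.36, 9.50 and 9.08 (−4.08 ± 0.15). Each of these was near background in the knockout and clearly expressed in the wild type. Hoxd8 was lower by 3.81 ± 0.22 and Hoxd4, not detected on any knockout array, at least 6.02-fold. Hoxa7 was expressed in both genotypes and was higher in the knockout (10.38, 10.16 and 10.20 against 9.75, 9.55 and 9.70). Hoxa9 was higher by 0.86 ± 0.15 and Hoxa4 by 0.78 ± 0.18. Most of the lower genes passed the detection filter only through the wild type. Of the 10 HOX genes detected on all 6 arrays, 4 were higher and 3 lower, with a median of 0.14. Without interferon Hoxc6 stood at 12.36, 12.28 and 12.46 in the wild type and at 4.42, 8.56 and 8.53 in the knockout.

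**Figure D4:**
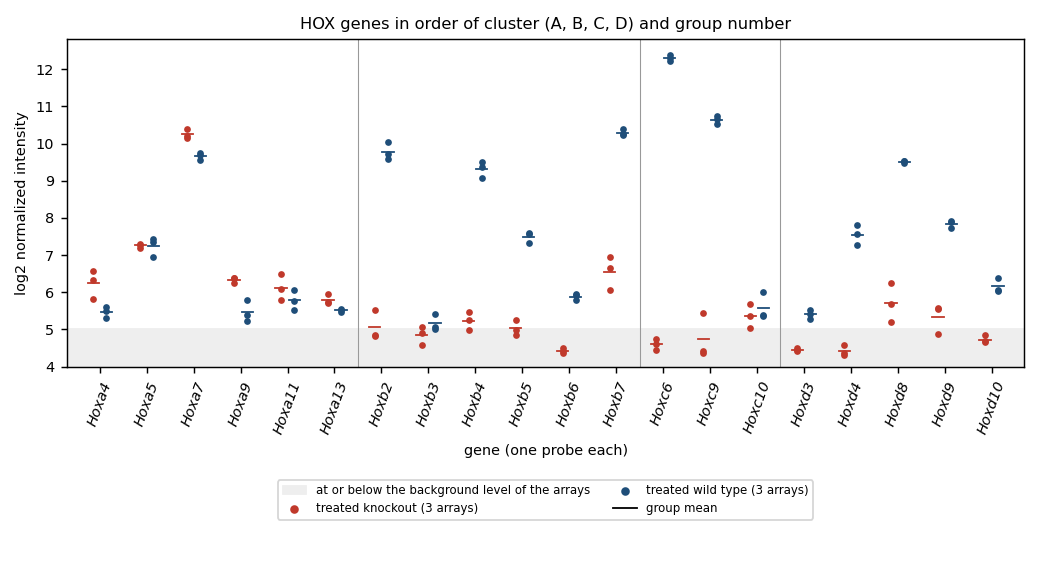
Log2 normalized intensity of the 20 tested HOX genes on the 3 treated knockout and 3 treated wild-type arrays (points), with group means (lines), ordered by cluster and group number, with the background level shaded. Genes of clusters B, C and D other than Hoxb3 and Hoxc10 are lower in the knockout, several of them near background, and Hoxa4, Hoxa7 and Hoxa9 lie slightly higher in the knockout.

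Of 22 tested transcription factors of mesenchyme, 9 were lower and 3 higher, which together is near the 52.7% called over all genes. Gata6, a factor of heart and endoderm derivatives, stood at 5.51, 5.68 and 5.55 in the knockout and at 9.38, 9.13 and 9.30 in the wild type (−3.69 ± 0.11, adjusted p = 4.00e-08). Sox9, the master factor of cartilage, stood at 9.52, 9.31 and 9.34 against 12.07, 12.04 and 12.08 (−2.67 ± 0.10, adjusted p = 1.09e-07). Meis2, a partner of HOX proteins, was lower by 2.30 ± 0.13 and the T-box factor Tbx15 by 1.32 ± 0.11. Msx1, a homeobox factor of limb and face, was higher at 7.92, 7.36 and 7.22 against 5.79, 5.58 and 5.58 (1.85 ± 0.17, adjusted p = 2.08e-05). Twist1, Prrx1 and Snai2, general mesenchymal factors, were not called. The genotypes did not overlap in Gata6, Sox9, Meis2, Tbx15 or Msx1.

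Collagens differed in both directions. Of 15 tested, 9 were lower and 3 higher, with a median of −0.97. The basement membrane chains Col4a1 and Col4a2, which lie side by side on chromosome 8, were lower together. Col4a1 stood at 9.83, 10.19 and 9.77 against 13.33, 13.09 and 13.28 (−3.30 ± 0.14, adjusted p = 1.47e-07), and Col4a2 was lower by 3.68 ± 0.15 (adjusted p = 1.16e-07). Col18a1, the source of endostatin, was lower by 2.74 ± 0.11, and the fibrillar Col3a1 differed by −3.11 ± 0.28. Col5a2, a chain that nucleates fibrils, was higher at 8.31, 8.32 and 8.28 against 6.37, 6.61 and 6.51 (1.81 ± 0.10, adjusted p = 1.01e-06). Col1a1 was higher by 0.65 ± 0.12, while Col1a2, its partner in type I collagen, was not called (−0.15, adjusted p = 0.315).

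Among other matrix genes, 11 of 24 tested were lower and 6 higher. Dcn, the proteoglycan decorin, stood at 4.89, 5.51 and 5.85 in the knockout and at 9.72, 9.90 and 9.89 in the wild type (−4.42 ± 0.21, adjusted p = 3.27e-07). Mgp, which keeps soft tissue from calcifying, stood at 9.63, 8.83 and 9.23 against 13.20, 13.15 and 13.18 (−3.95 ± 0.18, adjusted p = 2.37e-07). Thbs2, a matricellular inhibitor of vessel growth, was lower by 3.96 ± 0.22. Ogn, the proteoglycan osteoglycin, ran the other way, at 10.64, 10.07 and 10.32 against 6.85, 8.11 and 6.81 (3.09 ± 0.31, adjusted p = 3.42e-05), and the basement membrane gene Nid2 was higher by 2.33 ± 0.22. Nid1, its paralog, differed by −2.13.

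Proteases that cut the matrix differed in both directions as well. Of 14 tested, 8 were lower and 3 higher. Mmp3, the stromelysin that cuts many matrix proteins, was detected on no knockout array, where its level was lower by a factor of at least 7.01 (adjusted p = 1.09e-07). Its neighbour Mmp10 was likewise undetected, with a factor of at least 7.30 (adjusted p = 1.11e-07). Serpinf1, an inhibitor-like protein that restrains vessel growth, stood at 9.59, 9.33 and 9.39 against 12.94, 12.94 and 12.90 (−3.49 ± 0.11, adjusted p = 4.07e-08). A second Serpinf1 probe gave −0.01 and was not called, so its difference is uncertain. Of the 10 proteases and inhibitors detected on all 6 arrays, 5 were lower and 2 higher. Mmp2, the gelatinase, was higher by 1.76 ± 0.13, and Mmp23 by 2.92 ± 0.25.

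Genes of the BMP pathway, which patterns bone and limb, showed opposite differences of ligand and inhibitors. Bmp4, a ligand, stood at 9.65, 9.23 and 9.48 in the knockout and at 4.47, 5.66 and 4.41 in the wild type (4.6 ± 0.29, adjusted p = 1.92e-06). Without wild-type array 2 it was at least 22.1-fold higher, and a second Bmp4 probe gave 1.22. Grem1, the secreted inhibitor gremlin, stood at 5.53, 6.49 and 6.53 against 12.54, 12.20 and 12.30 (−6.16 ± 0.24, adjusted p = 1.13e-07). Fst, the activin and BMP inhibitor follistatin, stood at 7.80, 8.14 and 8.16 against 11.47, 11.54 and 11.79 (−3.57 ± 0.13, adjusted p = 1.09e-07). No knockout array reached a wild-type array in either inhibitor. The WNT inhibitors differed among themselves, with Sfrp1 lower by 4.91 ± 0.23 and Sfrp2 higher by 1.88 ± 0.24. Over the BMP, TGF-beta and WNT list, 10 of 19 tested genes were lower and 5 higher. The BMP target genes Id1 and Id3 were not called (0.14 and −0.36), and Id2 was higher by 0.46.

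Growth factor genes were lower more often than higher. Of 20 tested ligands and receptors, 10 were lower and 6 higher, and of 18 tested IGF-related and imprinted genes, 11 were lower and 2 higher, Grb10 and Igf2. Fgf10, the ligand that drives limb and lung outgrowth, stood at 6.11, 7.08 and 6.32 in the knockout and at 10.43, 10.19 and 10.59 in the wild type (−3.90 ± 0.23, adjusted p = 1.09e-06). Fgf7, a related ligand, was lower by 2.38 ± 0.10 and the PDGF receptor Pdgfra differed by −2.13 ± 0.14. The receptor Fgfr2, through which both ligands act in epithelia, was higher by 1.59 ± 0.12. Igfbp4, an IGF-binding protein, stood at 6.69, 7.18 and 7.33 against 10.38, 10.14 and 10.40 (−3.24 ± 0.16, adjusted p = 5.23e-07). Peg3, a paternally expressed zinc finger gene, was detected on no knockout array and was at least 3.66-fold lower. Igf2, the imprinted growth factor, was higher by 0.72 ± 0.12. Among IGF-related and imprinted genes detected on all 6 arrays, 7 were lower and 0 higher.

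The CDK inhibitors divided into opposite groups. Cdkn2a, whose locus encodes the inhibitor p16 and the p53 activator p19Arf, stood at 11.60, 11.70 and 11.82 in the knockout and at 4.49, 6.42 and 4.42 in the wild type. Wild-type arrays 1 and 3 did not detect it, and without array 2 it was at least 105-fold higher in the knockout. The difference over all arrays was 6.59 ± 0.44 (adjusted p = 2.59e-06), and the other kept probes gave 6.15 and 3.66. Its neighbour Cdkn2b, which encodes p15, stood at 9.22, 8.84 and 8.94 against 4.36, 5.99 and 4.48 (4.06 ± 0.36, adjusted p = 1.56e-05). Without interferon Cdkn2a stood at 11.76, 11.76 and 11.55 in the knockout and at 4.39, 4.63 and 4.33 in the wild type.

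Targets of the tumour suppressor p53 were lower in the knockout. Cdkn1a, the CDK inhibitor p21, stood at 10.48, 10.11 and 10.62 against 12.61, 12.43 and 12.59 (−2.14 ± 0.14, adjusted p = 2.55e-06). Mdm2, the ubiquitin ligase that degrades p53, stood at 10.63, 10.87 and 10.82 against 12.41, 12.23 and 12.41 (−1.57 ± 0.11, adjusted p = 3.59e-06). Ccng1 was lower by 1.81 ± 0.11, Zmat3 by 1.5 ± 0.15 and the cell death gene Bbc3 by 1.22. In the combined list of CDK inhibitors and p53 targets, 11 of 17 tested genes were lower and 4 higher. The 11 lower genes were p53 targets and the 4 higher ones were Cdkn2a, Cdkn2b, Cdkn2c and Cdkn2d. The p53 gene itself, Trp53, had no probe with its symbol.

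**Figure D5:**
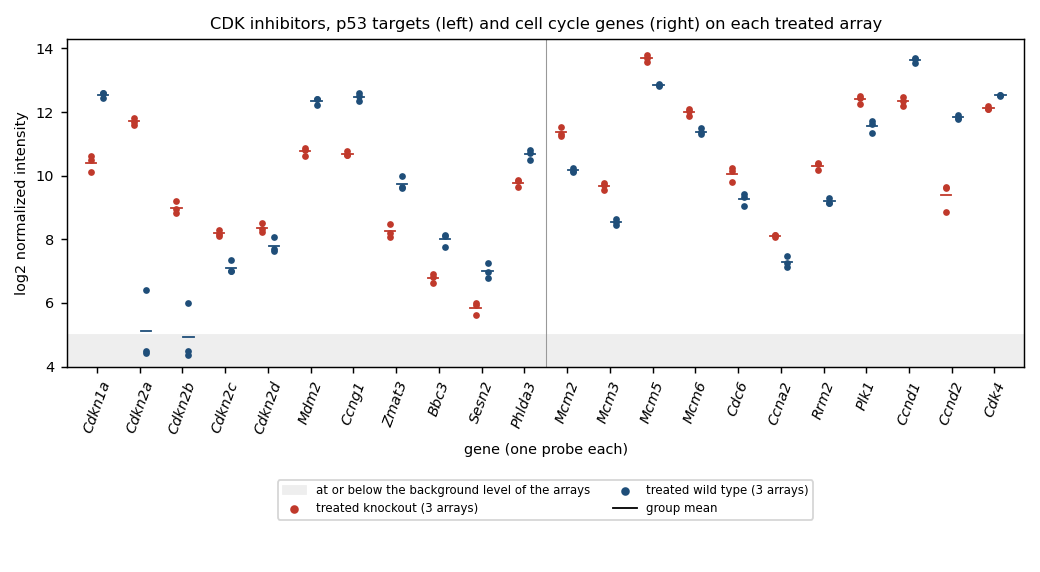
Log2 normalized intensity of CDK inhibitors and p53 targets (left of the line) and cell cycle genes (right) on the 3 treated knockout and 3 treated wild-type arrays (points), with group means (lines) and the background level shaded. Cdkn2a and Cdkn2b are near background in the wild type apart from array 2, the p53 targets are lower in the knockout, and the Mcm genes are higher.

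Genes of DNA replication and mitosis were mostly higher. Of 30 tested cell cycle genes, 20 were higher and 4 lower (66.7% and 13.3%, against 28.6% and 24.1% of all genes), with a median of 0.38. Mcm2, a subunit of the replicative helicase, stood at 11.24, 11.53 and 11.31 in the knockout and at 10.11, 10.16 and 10.23 in the wild type (1.20 ± 0.11, adjusted p = 2.06e-05). The helicase genes Mcm3, Mcm4, Mcm5, Mcm6 and Mcm7 were higher by 0.46 to 1.14. Rrm2, a subunit of the enzyme that makes deoxynucleotides, was higher by 1.11 ± 0.11 (adjusted p = 2.80e-05), though a second probe gave 0.23 and was not called. The cyclin Ccna2 was higher by 0.84 ± 0.11. The D-type cyclins were lower, with Ccnd2 at 9.66, 8.87 and 9.62 against 11.92, 11.82 and 11.78 (−2.45 ± 0.19, adjusted p = 7.11e-06) and Ccnd1 lower by 1.29 ± 0.11. Without knockout arrays 2 and 3 together, 12 members were higher. An E2F motif, TTTCCCGC or TTTGGCGC on either strand, was present in 7 of 24 promoters of these genes, against 3.52% of tested and 1.8% of all promoters. The match is in 6 of 17 promoters of higher members, in 0 of 2 of lower ones and in 1 of 5 of those not called. These are too few promoters to compare the 3 kinds. The promoter of Mcm5, which was higher by 0.84 ± 0.10, is shown as an example, with the match in capitals, over the 200 bases before the start on GRCm38.p6.
Mcm5, chr8:75109309-75109508, plus strand, match 149 bases before the start: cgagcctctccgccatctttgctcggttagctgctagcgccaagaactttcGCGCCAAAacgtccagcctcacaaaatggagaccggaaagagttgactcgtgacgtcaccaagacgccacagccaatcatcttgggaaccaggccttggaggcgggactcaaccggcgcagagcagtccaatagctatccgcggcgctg

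Cholesterol synthesis genes were mostly lower. Of 14 tested, 11 were lower and 2 higher (78.6% and 14.3%), with a median of −0.65. Msmo1, a sterol oxidase, stood at 10.02, 9.83 and 9.88 in the knockout and at 11.62, 11.51 and 11.54 in the wild type (−1.64 ± 0.10, adjusted p = 1.67e-06). Mvd was lower by 1.19 ± 0.15, Sqle by 1.06 ± 0.11, Lss by 0.95 ± 0.13 and Cyp51 by 0.90 ± 0.12, all enzymes of the same pathway. A second Lss probe gave 0.04 and was not called. Srebf2, the transcription factor that drives these genes, was lower by 0.58. Mvk and Dhcr7, also enzymes of the pathway, were higher by 0.46 and 0.45. Without knockout arrays 2 and 3 together, 7 members were lower and 1 higher, and 1 was higher without knockout array 3 or wild-type array 3. The sterol element TCACNCCAC was found in 0 of 11 promoters of the list and in 1.44% of all promoters, so its letters were absent from these windows.

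Contractile genes of smooth and striated muscle differed in both directions. Of 16 tested, 7 were lower and 3 higher (43.8% and 18.8%, against 24.1% and 28.6% of all genes). Actg2, the enteric smooth muscle actin, stood at 6.25, 6.57 and 6.35 against 9.21, 9.06 and 8.88 (−2.66 ± 0.13, adjusted p = 3.40e-07), and Acta2, the actin of smooth muscle and myofibroblasts, was lower by 0.77 ± 0.10. Tagln, an actin-binding protein of the same cells, was higher, at 8.73, 8.31 and 8.47 against 6.62, 6.59 and 6.69 (1.87 ± 0.12, adjusted p = 2.59e-06). Probes of Tpm2 disagreed in direction (−0.51 and 2.10).

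Antioxidant enzymes were lower where they differed, with few exceptions. Of 21 tested genes of antioxidant defence and NAD metabolism, 10 were lower and 2 higher. The 12 called are near the 52.7% called over all genes, of which 24.1% were lower and 28.6% higher. Gpx3, the secreted glutathione peroxidase, was detected on no knockout array and was at least 6.36-fold lower (adjusted p = 2.78e-07). The glutathione transferase Gstm2 stood at 9.10, 8.72 and 9.01 against 11.21, 11.12 and 11.20 (−2.23 ± 0.12, adjusted p = 6.72e-07). Nqo1, a quinone reductase, was lower by 1.98 ± 0.15. Nampt, which makes the NAD precursor that sirtuins depend on, was not called (−0.04, adjusted p = 0.768), and Parp1, another consumer of NAD, was higher by 0.86.

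Immediate early genes respond to growth factors within minutes. Of 19 tested members, 10 were lower and 2 higher (52.6% and 10.5%, against 24.1% and 28.6% of all genes). Egr3 stood at 4.71, 5.66 and 5.25 in the knockout and at 8.91, 8.85 and 8.90 in the wild type (−3.68 ± 0.20, adjusted p = 7.64e-07). Dusp6, the phosphatase that switches off ERK, stood at 10.30, 10.58 and 10.46 against 12.97, 12.86 and 13.15 (−2.55 ± 0.12, adjusted p = 3.09e-07). Fosb was lower by 1.88 ± 0.13 and Egr2 by 1.61 ± 0.11. Fos, Jun and Myc were not called (−0.04, 0.02 and 0.14), and Egr1 was higher by 0.62 (adjusted p = 0.0173). Leaving out knockout array 3, wild-type array 1 or wild-type array 3 left 1 higher member.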

How the data were processed

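Biotinylated RNA from each sample was hybridised to its own array. The authors deposited, per the file headers, 1 linear intensity per probe and array with a detection p-value against negative controls. No source used here names the scanner software. The authors also deposited log2 values, which equalled the quantile-normalized log2 intensities within 0.000639, so no background had been subtracted.

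The intensities of all 12 arrays were background-corrected by normexp, with an offset of 16 and negative controls estimated through the detection p-values, quantile-normalized and log2-transformed (neqc in limma 3.58.1, R 4.3.3). A single gene symbol was given for 34885 of 45281 probes, several for 18 and none for 10378, and 34807 matched RefSeq by gene ID. Probes detected (p under 0.05) on all 3 arrays of either treated group were kept (16967). The brightest kept probe stood for each symbol, and a probe without a single symbol stood for itself. This gave 11645 genes, 9393 with a name. The others are single probes counted as genes here, and some may repeat a gene. Of 3638 genes with several kept probes, 51 had probes called in opposite directions. The difference, knockout minus wild type, was fitted to the 6 treated arrays with limma's lmFit and eBayes (two-sided), and p-values were adjusted by Benjamini-Hochberg over all genes, with a threshold of 0.05. Where a gene was detected on no array of a group, its fold is a lower bound against the lowest signal of detected probes on each array. The fit was tested on simulated data.

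The members and the 26 gene lists were chosen with earlier results of these data known. The rule for names takes the 15 largest non-overlapping differences in each direction, the 5 largest of each list and 21 genes always, Sirt2 among them. List members outside it, and Thy1 and Krt18, were named after their values were seen. The matching replicate numbers did not pair the samples: same-numbered deviations correlated at 0.0928, −0.0229 and 0.0416. Alternatives covered the background correction, scaling, filter, probe choice, the arrays that set the spread, a replicate block and leaving out arrays.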

Additional observations from a re-analysis of the deposited data

Results flagged for a closer look

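For 8 genes of the interferon lists, the genotype difference with interferon differed from that without it, by a test of the difference of differences in a limma fit to all 12 arrays, adjusted over all genes. It was made for the 25 genes of these lists with a difference of at least 2-fold under interferon, and each value below is the treated minus the untreated genotype difference on the log2 scale. Untreated knockout arrays 2 and 3 stood above array 1 in many of these genes (Isg15 at 10.77 and 11.42 against 8.04), for a reason that was not tested, so each value is also given without them. Both comparisons share the treated arrays described in the report. The 25 genes were chosen by their difference on those arrays, so the test is not independent of that choice. Of the 8 genes, Ccl11, Ccl8, Ccl4 and H2-Q6 passed the detection filter only through the genotype in which they were high. Where the untreated levels lie near background, as for Ccl11, Ccl8, Ccrl2 and Il6, the value largely restates the treated difference.

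Lower in the treated knockout beyond any untreated difference were Ch25h, by −3.20 ± 0.51 (adjusted p = 0.0097, and −2.0 without the arrays), and the chemerin receptor Ccrl2, by −2.95 ± 0.31 (adjusted p = 0.000541, and −2.58 without them). The GTPase gene Tgtp1 had a value of −2.84 ± 0.46 (adjusted p = 0.0103, and −1.85 without them) and the monocyte attractant Ccl8 one of −2.36 ± 0.23 (adjusted p = 0.000235, and −2.22). Il6 had −1.76 ± 0.22 (adjusted p = 0.00232, and −1.45) and Ccl11, an attractant of eosinophils, −1.66 ± 0.15 (adjusted p = 0.000101, and −1.64). Higher beyond any untreated difference were the class I gene H2-Q6, by 1.64 ± 0.29 (adjusted p = 0.0247, and 2.02 without the arrays), and Ccl4, by 1.01 ± 0.16 (adjusted p = 0.0104). The call for Ccl4 was lost without the arrays (1.05, adjusted p = 0.0573), and Ifi205 was called in its place (2.29, adjusted p = 0.0133). Over all genes, 66 were called with the arrays and 42 without.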

How the results depend on the processing

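The alternatives kept the direction of the counts. Leaving out each array in turn gave 2720 to 3193 higher and 2447 to 2773 lower genes, Sirt2 differences of −2.98 to −2.73 and antiviral mean differences of −0.33 to −0.15. With the deposited log2 values, from which no background was subtracted, Sirt2 differed by −1.89 (adjusted p = 1.59e-08). Without knockout replicates 2 and 3 together, the counts were 2140 higher and 2109 lower, and the lone knockout array was assumed to vary like the wild type. The deposited log2 values gave 3368 and 2842, median scaling 3262 and 2842, normalization over the treated arrays 3342 and 2825, the mean of kept probes 3504 and 2840, a spread from all 12 arrays 3269 and 2799, no detection filter 3029 and 2673, and detection on all 6 arrays 2960 and 2322. With the replicate number as a block, 3272 genes were higher and 2815 lower, Sirt2 differed by −2.86 (adjusted p = 6.5e-06) and the antiviral mean by −0.22 (exact p = 0.25). Mx1 was called under the block (adjusted p = 0.0235) and Tubb5 was not (0.0747). The numbers do not pair the samples, so this adds no evidence on either gene. Directions that turned were those of Rsad2 (−0.03 without knockout replicate 1, and up to 0.21 without others) and Mx2 (0.01 without knockout replicate 3, and down to −0.27 without others). Without knockout replicates 2 and 3 together, Gbp2 (0.04), Mx1 (0, adjusted p = 0.996) and Mx2 (0.2) turned too. None of these was called before. The cause was not tested. Of 2090 alternative values of the 142 called named genes, 2057 kept their direction and call, 33 lost the call in 16 genes and 0 turned. The file headers give no slides, so a slide block was not run. Array number and signal over background limit the weakly expressed genes.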
